A study of Mus musculus with 32 samples.

Results

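DN1 cells, the earliest thymocyte stage lacking CD4 and CD8, were sorted from the mouse embryonic thymus and compared by ID2 among cells negative for BCL11b. The comparison was made at E15.5, an embryonic day, and set 3 BCL11b-ID2+ libraries against 3 BCL11b-ID2- libraries. These are 6 of the 32 bulk RNA-seq libraries of the series, and they were chosen by the gate named in the labels and not by any measured value. All gates came from the embryonic thymus of a strain that the labels call 5x polychromILC, and the labels give no treatment. The alleles of this strain are not described in the sources used here. The same gates at E19.5 (3 and 3 libraries) and the BCL11b+ID2+ and BCL11b+ID2- gates at E15.5 (3 and 3 libraries) serve for comparison. The labels do not say that libraries of a gate came from separate embryos or litters. What the p-values measure is thus the variation among these libraries, and part or all of it may be technical.

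BCL11b is the zinc finger factor that thymocytes switch on as they commit to the T-cell lineage. ID2 binds E proteins, the basic helix-loop-helix factors that drive T- and B-cell genes, and keeps them off DNA. It is high in natural killer (NK) cells, innate lymphoid cells (ILCs) and their precursors. The fetal thymus is known to hold such innate cells beside T-cell progenitors. In bulk samples, fewer cells of a type and less RNA per cell cannot be told apart.

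The BCL11b-ID2+ libraries held 17301236 to 18144103 reads and the BCL11b-ID2- libraries 18230963 to 20251462 reads. Mitochondrial ribosomal RNA took 63.0% to 74.3% of these reads in BCL11b-ID2+ cells and 65.6% to 70.1% in BCL11b-ID2- cells. Reads from genes outside the mitochondrial genome numbered 4039214 to 6321093 in BCL11b-ID2+ libraries and 5634612 to 6224566 in BCL11b-ID2- libraries. Libraries of 1 gate varied widely at E15.5. Over the 10289 genes tested, 904 (8.79%) were at 0 in 1 BCL11b-ID2+ library and at 100 or more in another, and 567 (5.51%) among the BCL11b-ID2- libraries. At E19.5 these counts were 1 and 3 of 13840 genes. The correlation of log2 values across genes was 0.578 to 0.635 within the BCL11b-ID2+ gate, 0.626 to 0.669 within the BCL11b-ID2- gate and 0.524 to 0.593 between the gates. Genes are not independent replicates, and these correlations are descriptions.

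Values below are DESeq-normalised read counts, called normalised counts, with libraries 1, 2 and 3 of each gate given in that order. Id2 had 763, 2487 and 1035 normalised counts in BCL11b-ID2+ cells, against 126, 38.9 and 17.5 in BCL11b-ID2- cells. The gates did not overlap, but the log2 difference of 4.79 ± 1.80 (SE) did not pass the test (adjusted p = 0.347). Bcl11b had 509, 7.03 and 56.1 normalised counts in BCL11b-ID2+ cells, against 6.39, 39.6 and 20.9 in BCL11b-ID2- cells. Its level in BCL11b-ID2+ library 1 stood above the other 5, and below the 1432 to 5511 of BCL11b+ID2+ cells and the 927 to 4467 of BCL11b+ID2- cells. The haematopoietic gene Ptprc and the DN1 markers Kit and Cd44 were detected in all 6 libraries, as was Il7r. Flt3, checked with them, had 0, 0 and 0.631 normalised counts in BCL11b-ID2+ cells, against 6.39, 23.1 and 36.4 in BCL11b-ID2- cells. Thy1, also checked, had 205, 685 and 841 normalised counts in BCL11b-ID2+ cells, against 9.24, 48.2 and 1.35 in BCL11b-ID2- cells (limma adjusted p = 0.0693). Kit, the receptor for stem cell factor, had 1412, 505 and 1281 normalised counts in BCL11b-ID2+ cells, against 4197, 3529 and 2903 in BCL11b-ID2- cells. Cd8b1 was listed at 0 in all 6 libraries, and Cd4 was at 0 in all but BCL11b-ID2- library 1, where it had 4.97 normalised counts. Il2ra, which marks the next stage, DN2, had 60.0, 668 and 260 normalised counts in BCL11b-ID2+ cells, against 3997, 1979 and 1448 in BCL11b-ID2- cells. The 2 DN2 libraries of E15.5 had 28887 and 29785 normalised counts of Il2ra.

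BCL11b-ID2+ cells had higher levels of 8 NK receptor genes and of 5 of 14 genes tested from an ILC precursor list than BCL11b-ID2- cells. They had lower levels of progenitor genes such as Erg and Angpt1. Of 10289 genes, 48 (0.467%) passed an adjusted p of 0.05, called below, with 33 (0.321%) higher and 15 (0.146%) lower in BCL11b-ID2+ cells. An unadjusted p under 0.05 was reached by 948 genes (9.21%). The 3 libraries of each gate did not overlap for all 48 called genes, against 1739 genes (16.9%) over all tested. The 48 were selected on these same libraries, so their separation is a description and adds no support to the calls. Most called genes were nearly absent from one of the gates and abundant in the other. The median log2 difference of all genes tested was -0.14. The calls rest on all 6 libraries: 15, 11 and 13 genes were called without BCL11b-ID2+ library 1, 2 or 3, and 15, 11 and 4 without BCL11b-ID2- library 1, 2 or 3. Ets1 and Ikzf3, higher, and Cd24a and Cdk6, lower, were called in each of these 6 fits. Erg was called in 5 of them and Angpt1 in 0. Of the 8 NK receptor genes, Il2rb was called in 5 of these fits, and Klri2, Ncr1 and Klrb1c in 1 each. Klrk1, Klrc1, Klrb1b and Slamf7 were called in 0 of them.

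**Figure D1:**
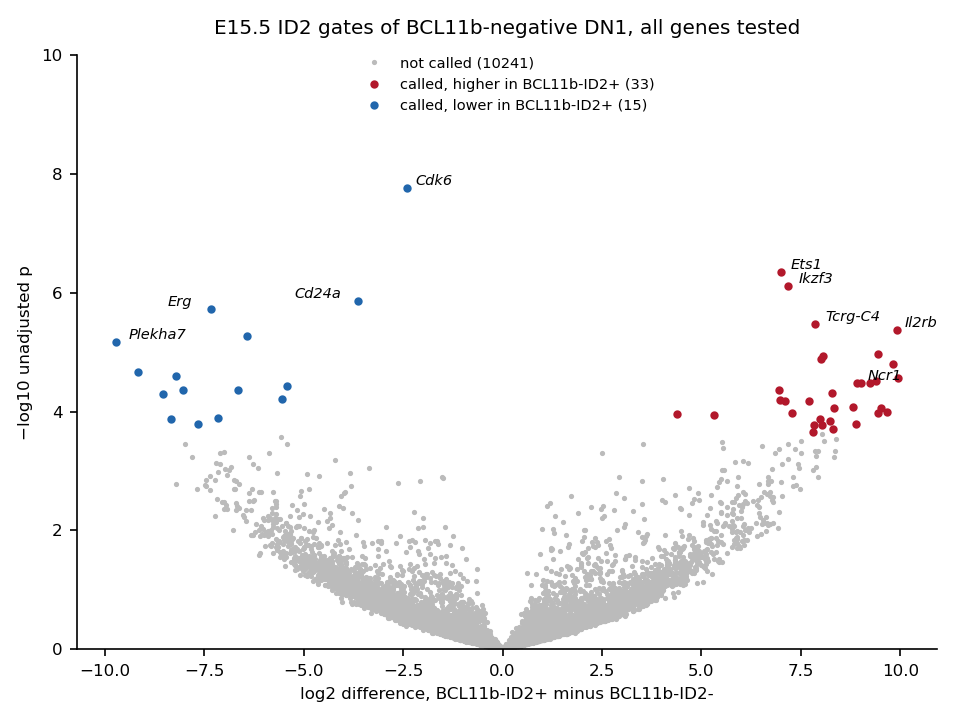
Log2 difference (BCL11b-ID2+ minus BCL11b-ID2-) of each gene tested at E15.5 on the horizontal axis and −log10 of its unadjusted limma p on the vertical axis. The 33 genes called higher are red, the 15 called lower are blue and the others grey. Cdk6, with a log2 difference of only -2.396, has the smallest p.

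Of the gene lists examined, NK receptors held the most genes called higher. Of 24 list members with values, 17 were tested, and 8 were called higher and 0 lower, with a median log2 difference of 8.33 over the 17. Members such as Ncr1, near 0 in the other DN1 gates, passed the filter on low values through the BCL11b-ID2+ libraries and had to differ. Medians and counts over this list, and over the others below, are therefore descriptions. Il2rb, the beta chain shared by the receptors for interleukin-2 and interleukin-15, had 7469, 4163 and 5868 normalised counts in BCL11b-ID2+ cells, against 16.3, 5.94 and 0.674 in BCL11b-ID2- cells. Its log2 difference was 9.92 ± 1.70 (SE, adjusted p = 0.00613), and the gates lay far apart in every library. Ncr1, which encodes the activating NK receptor NKp46, had 562, 1233 and 1053 normalised counts in BCL11b-ID2+ cells, against 2.84, 0.660 and 0 in BCL11b-ID2- cells. Its log2 difference was 8.92 ± 1.77 (SE, adjusted p = 0.0171).

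Of the 8 called NK receptor genes, 5 encode killer cell lectin-like receptors and lie on chromosome 6. Klrk1, which encodes the activating receptor NKG2D (chromosome 6, 129610323 to 129623864, minus strand, GRCm38), had 3472, 2838 and 1757 normalised counts in BCL11b-ID2+ cells, against 2.84, 0.660 and 4.05 in BCL11b-ID2- cells. Klrc1, which encodes the inhibitory receptor NKG2A, had 2241, 3996 and 1127 normalised counts in BCL11b-ID2+ cells, against 4.26, 1.98 and 0.674 in BCL11b-ID2- cells. Klri2, a further lectin-like receptor, had the largest log2 difference of the named genes, 9.93 ± 1.94 (SE, adjusted p = 0.0171). It had 3281, 4415 and 2556 normalised counts in BCL11b-ID2+ cells, against 9.24, 1.32 and 0.674 in BCL11b-ID2- cells. Klrb1b had 1711, 2405 and 2269 normalised counts in BCL11b-ID2+ cells, against 3.55, 3.96 and 2.02 in BCL11b-ID2- cells. Its BCL11b-ID2+ libraries lay closer together than those of Klrb1c. Klrb1c, which encodes NK1.1, had 71.1, 1946 and 958 normalised counts in BCL11b-ID2+ cells, against 0.711, 0 and 1.35 in BCL11b-ID2- cells. Slamf7, a SLAM-family receptor of NK cells, had 4600, 937 and 1542 normalised counts in BCL11b-ID2+ cells, against 2.13, 3.30 and 0.674 in BCL11b-ID2- cells. Genes of the Klr families resemble each other, and how shared reads were counted is not stated in the labels or processing notes, so the split of reads between close relatives is uncertain.

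The promoters of 4 called NK receptor genes are shown because they hold the letters of a RUNX motif, after the matches were seen. The promoters of the other called receptor genes with an entry do not hold them: Klrb1b has the letters of the ETS motif only, and Slamf7 those of none of the 4 motifs searched. RefSeq promoters (GRCm38.p6) were matched for 22 of the 33 genes called higher and 9 of the 15 called lower, and the 250 bases before each start were searched on both strands. The letters of a RUNX motif, TGTGGT, were present for 8 of 22 higher genes (36.4%), 1 of 9 lower genes (11.1%) and 14.2% of all 27025 promoters. An ETS motif, GGAAGT, was present for 6 of 22 higher genes (27.3%), 1 of 9 lower genes (11.1%) and 19.99% of all promoters. An E-box in either of its forms, CAGCTG and also CAGGTG, was present for 4 of 22 higher genes (18.2%), 1 of 9 lower genes (11.1%) and 27.4% of all promoters. A T-box motif, AGGTGT, whose letters can overlap those of the second E-box form, was present for 1 of 22 higher genes (4.55%), 2 of 9 lower genes (22.2%) and 11.99% of all promoters. A match is a description of letters and not a site, and these shares were not tested. Below, 5′ to 3′ on each gene's strand, capitals mark the RUNX letters, and in Klrb1c and Mpo also the ETS letters. Mpo is shown as the gene called lower with the myeloid role described further on. The windows are chr7:4337465-4337714 (+) for Ncr1, chr6:129623865-129624114 (-) for Klrk1, chr6:129678974-129679223 (-) for Klrc1, chr6:128788642-128788891 (-) for Klrb1c and chr11:87793534-87793783 (+) for Mpo.
Ncr1: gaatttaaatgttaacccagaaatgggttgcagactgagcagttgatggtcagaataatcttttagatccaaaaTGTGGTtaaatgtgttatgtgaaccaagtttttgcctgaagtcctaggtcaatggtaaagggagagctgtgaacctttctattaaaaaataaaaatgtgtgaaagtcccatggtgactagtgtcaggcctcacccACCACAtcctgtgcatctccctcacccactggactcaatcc
Klrk1: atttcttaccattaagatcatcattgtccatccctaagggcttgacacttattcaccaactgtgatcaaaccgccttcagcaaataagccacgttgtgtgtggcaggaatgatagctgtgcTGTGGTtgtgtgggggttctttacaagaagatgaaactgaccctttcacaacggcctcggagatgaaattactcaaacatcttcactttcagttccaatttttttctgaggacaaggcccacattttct
Klrc1: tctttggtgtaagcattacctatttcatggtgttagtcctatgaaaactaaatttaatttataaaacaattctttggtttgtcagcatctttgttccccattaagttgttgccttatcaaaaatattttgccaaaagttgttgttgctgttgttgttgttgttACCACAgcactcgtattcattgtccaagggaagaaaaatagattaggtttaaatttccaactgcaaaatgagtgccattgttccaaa
Klrb1c: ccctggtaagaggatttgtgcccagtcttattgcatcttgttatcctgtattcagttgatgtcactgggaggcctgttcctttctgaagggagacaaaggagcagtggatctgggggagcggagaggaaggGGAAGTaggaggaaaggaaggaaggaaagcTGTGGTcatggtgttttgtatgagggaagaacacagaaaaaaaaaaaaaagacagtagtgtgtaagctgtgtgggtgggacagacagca
Mpo: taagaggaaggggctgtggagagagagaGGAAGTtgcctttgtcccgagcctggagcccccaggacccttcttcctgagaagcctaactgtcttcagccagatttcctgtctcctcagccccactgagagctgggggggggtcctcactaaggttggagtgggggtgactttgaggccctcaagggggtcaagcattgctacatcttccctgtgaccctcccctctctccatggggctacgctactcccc

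Counted from the RefSeq start, Ncr1 holds the RUNX letters at -176 and -41. Klrk1 holds them at -129, Klrc1 at -87 and Klrb1c at -89. RefSeq starts need not be those of GENCODE M21. In GENCODE M21 Klrb1c begins at 128789215 on the minus strand, so its window lies inside that gene model, and Mpo begins at 87793581 on the plus strand, inside its window. The Rag2 and Erg windows held none of the 4 motifs.

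**Figure D2:**
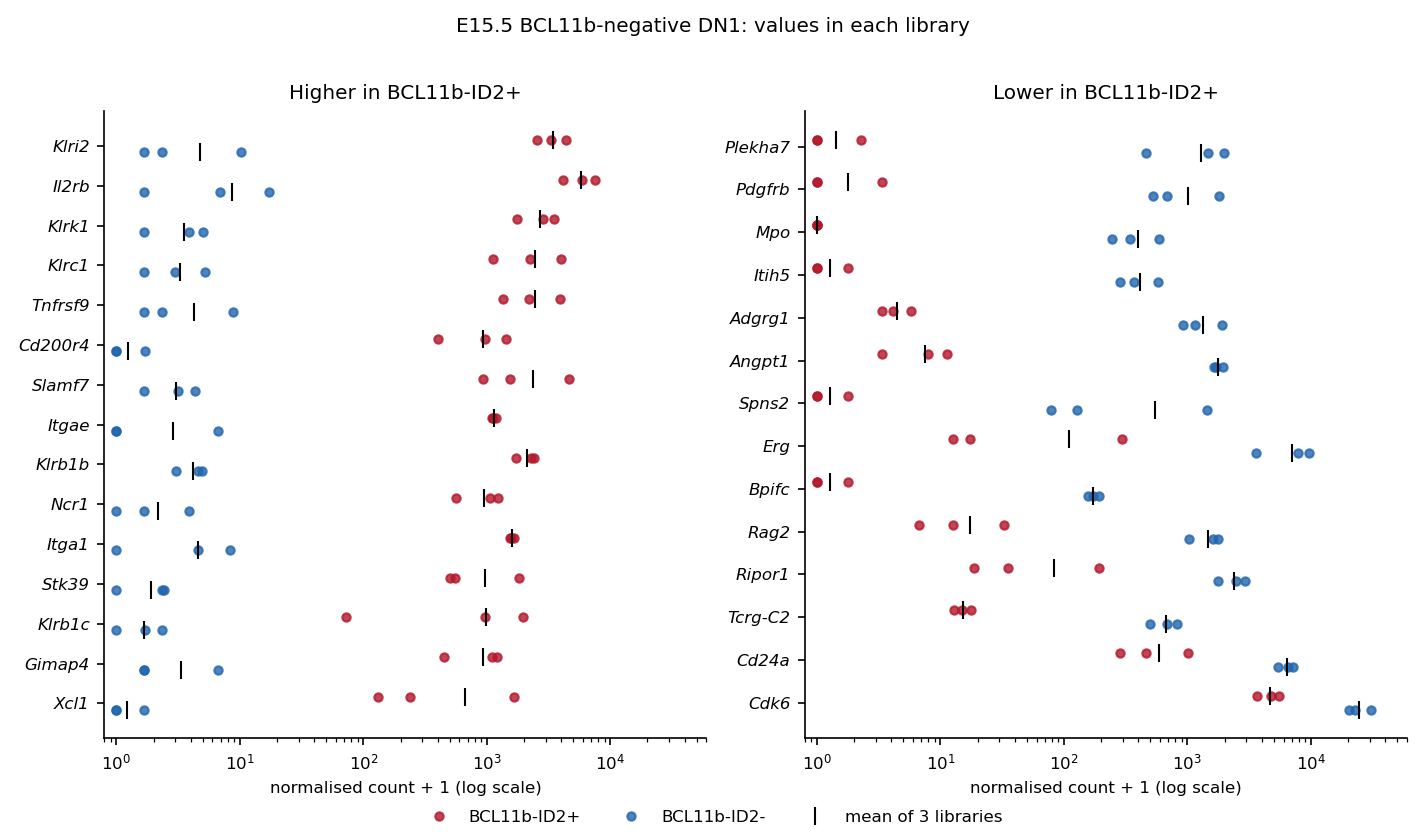
Normalised count plus 1 in each library (log axis) of called genes with the largest log2 difference, 15 higher and 14 lower, predicted genes left out. In each row the upper, red points are BCL11b-ID2+ libraries, the lower, blue points BCL11b-ID2- libraries and the ticks means of 3 libraries. In the left panel most BCL11b-ID2+ libraries exceed 100 and no BCL11b-ID2- library reaches that value. The right panel shows the reverse for genes such as Mpo, and Cdk6 as a gene that stayed high in both gates.

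Of 12 cytotoxic granule and effector genes tested, 2 were called higher and 0 lower. Xcl1, a chemokine of NK cells, had 1644, 236 and 131 normalised counts in BCL11b-ID2+ cells, against 0, 0.660 and 0 in BCL11b-ID2- cells (log2 difference 8.30 ± 1.69 SE, adjusted p = 0.0197). Ctsw, a cathepsin of cytotoxic lymphocytes, had 424, 49.2 and 176 normalised counts in BCL11b-ID2+ cells and 0 in all 3 BCL11b-ID2- libraries. That is at least 305-fold higher, taking 3 reads over the BCL11b-ID2- gate as the floor. Ccl5 had 196, 354 and 286 normalised counts in BCL11b-ID2+ cells and 0 in all 3 BCL11b-ID2- libraries, and missed the threshold (adjusted p = 0.0602). The granule protease gene Gzma was high in both gates, with 4025, 4128 and 2567 normalised counts in BCL11b-ID2+ cells, against 500, 916 and 229 in BCL11b-ID2- cells (adjusted p = 0.301). Prf1, the pore-forming perforin, was listed at 0 in BCL11b-ID2+ libraries 1 and 2 and had 113 normalised counts in library 3, and it was at 0 in all BCL11b-ID2- libraries. The T-box factor gene Eomes, a regulator of mature NK cells, had 584, 1.17 and 5.04 normalised counts in BCL11b-ID2+ cells, against 0, 1.32 and 1.35 in BCL11b-ID2- cells. Its high value stood in 1 library only, the one with more Bcl11b. The other T-box factor gene, Tbx21, had 21.6, 101 and 87.6 normalised counts in BCL11b-ID2+ cells, against 0, 0.660 and 0 in BCL11b-ID2- cells (adjusted p = 0.126). Of 19 NK receptor adaptors and kinases tested, 0 were called in either direction by limma.

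Transcription factor genes of lymphoid and innate cells were among the steadiest calls. Ets1, an ETS-family factor needed for NK-cell development in mice, had 2516, 939 and 3115 normalised counts in BCL11b-ID2+ cells, against 4.97, 23.8 and 22.9 in BCL11b-ID2- cells. Its log2 difference was 6.997 ± 1.04 (SE, adjusted p = 0.00228). Ikzf3, which encodes the Ikaros-family factor Aiolos, had 10140, 15218 and 13038 normalised counts in BCL11b-ID2+ cells, against 339, 83.8 and 21.6 in BCL11b-ID2- cells. Its log2 difference was 7.19 ± 1.103 (SE, adjusted p = 0.00267). These were 2 of 12 NK and ILC1 regulators tested, and 0 were called lower.

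Of 14 ILC precursor genes tested, 5 were called higher and 0 lower. They were Ets1, Rora, Il18r1, Cxcr6 and Arg1. Rora, a nuclear receptor needed for group 2 ILCs, had 4088, 1088 and 2109 normalised counts in BCL11b-ID2+ cells, against 8.53, 7.92 and 4.72 in BCL11b-ID2- cells (log2 difference 8.07 ± 1.48 SE, adjusted p = 0.0109). Il18r1, the interleukin-18 receptor, had 7117, 9734 and 3264 normalised counts in BCL11b-ID2+ cells, against 89.5, 172 and 6.74 in BCL11b-ID2- cells (log2 difference 6.94 ± 1.41 SE, adjusted p = 0.0188). Both genes were present at high level in every BCL11b-ID2+ library. Cxcr6, a chemokine receptor of innate lymphoid precursors, had 198, 891 and 961 normalised counts in BCL11b-ID2+ cells, against 0.711, 1.98 and 2.02 in BCL11b-ID2- cells (adjusted p = 0.0472). Arg1, the arginase that marks ILC precursors and group 2 ILCs, had 321, 2248 and 429 normalised counts in BCL11b-ID2+ cells, against 2.13, 1.32 and 2.70 in BCL11b-ID2- cells (adjusted p = 0.0374). The precursor regulator Tox had 3535, 3111 and 3452 normalised counts in BCL11b-ID2+ cells, against 439, 785 and 1329 in BCL11b-ID2- cells, without passing (adjusted p = 0.463). Tcf7, a factor of both T-cell and ILC precursors, had 1531, 1197 and 1318 normalised counts in BCL11b-ID2+ cells, against 4051, 1714 and 4239 in BCL11b-ID2- cells (adjusted p = 0.535). Also on this list, Zbtb16 had 719, 352 and 745 normalised counts in BCL11b-ID2+ cells, against 92.4, 156 and 334 in BCL11b-ID2- cells (adjusted p = 0.843). Pdcd1 was not tested, with 0, 0 and 1.26 normalised counts in BCL11b-ID2+ cells and 0 in all 3 BCL11b-ID2- libraries.

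Of 13 ILC2 genes tested, 3 were called higher and 0 lower, and these were Rora, Arg1 and Fgl2. The first 2 also stand in the precursor list. Fgl2, a secreted fibrinogen-like protein, had 5369, 4215 and 2629 normalised counts in BCL11b-ID2+ cells, against 20.6, 73.9 and 17.5 in BCL11b-ID2- cells (adjusted p = 0.0230). Il13 was carried mainly by BCL11b-ID2+ library 1, with 1714, 155 and 24.0 normalised counts in BCL11b-ID2+ cells, against 0, 0.660 and 0 in BCL11b-ID2- cells (adjusted p = 0.122). The ILC2 list had 9 members with a log2 difference above 0 and 3 below. Those below, none of them called, were Il1rl1 (-2.12), Hpgds (-1.77) and Il9r (-3.49), and Il17rb was close to even (0.09). Of 8 ILC3 genes tested, 0 were called in either direction by limma.

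Of 27 chemokine receptor and homing genes tested, 3 were called higher (Itgae, Itga1 and Cxcr6), 1 lower and 23 in neither direction. Itgae, the integrin that binds E-cadherin on epithelium, had 1128, 1108 and 1180 normalised counts in BCL11b-ID2+ cells, against 5.68, 0 and 0 in BCL11b-ID2- cells (log2 difference 9.24 ± 1.83 SE, adjusted p = 0.0171). Itga1, an integrin that binds collagen and marks tissue-resident ILC1s, had 1657, 1547 and 1561 normalised counts in BCL11b-ID2+ cells, against 3.55, 7.26 and 0 in BCL11b-ID2- cells (adjusted p = 0.0374). The values of these integrin genes in the 3 BCL11b-ID2+ libraries lay close together.

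Further surface receptors followed. Of 10 TNF receptor genes tested, 1 was called higher and 0 lower. This was Tnfrsf9, the costimulatory receptor 4-1BB, with 3886, 2175 and 1350 normalised counts in BCL11b-ID2+ cells, against 7.82, 1.32 and 0.674 in BCL11b-ID2- cells (adjusted p = 0.0305). Of 11 SLAM, CD200 and inhibitory receptor genes tested, 3 were called higher and 0 lower, namely Slamf7, Cd200r4 and Cd200r2. Cd200r4 had 964, 404 and 1442 normalised counts in BCL11b-ID2+ cells, against 0.711, 0 and 0 in BCL11b-ID2- cells (log2 difference 9.43 ± 1.72 SE, adjusted p = 0.0108). Cd200r2 had 213, 157 and 267 normalised counts in BCL11b-ID2+ cells and 0 in all 3 BCL11b-ID2- libraries, at least 299-fold higher at the same floor. The CD200 receptor genes lie together on chromosome 16 and resemble each other, so reads shared between them are uncertain. Of 6 GIMAP genes tested, GTPases of lymphocytes, 1 was called higher and 0 lower, with Gimap4 at 1106, 447 and 1213 normalised counts in BCL11b-ID2+ cells, against 5.68, 0.660 and 0.674 in BCL11b-ID2- cells (adjusted p = 0.0431). Of 22 cytokine receptor genes tested, Il2rb and Il18r1 were called higher and 0 lower.

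In the Notch pathway, which drives T-cell specification from the thymic stroma, 1 of 13 genes tested was called higher and 0 lower. Jag1, a Notch ligand, had 675, 470 and 662 normalised counts in BCL11b-ID2+ cells, against 1.42, 1.32 and 1.35 in BCL11b-ID2- cells (log2 difference 7.98 ± 1.77 SE, adjusted p = 0.0332). The receptor gene Notch1 had 21.6, 312 and 272 normalised counts in BCL11b-ID2+ cells, against 4381, 1372 and 1241 in BCL11b-ID2- cells. Its libraries did not overlap between the gates, but it did not pass (adjusted p = 0.157). Notch3 likewise had 0, 3.52 and 0 normalised counts in BCL11b-ID2+ cells, against 620, 184 and 101 in BCL11b-ID2- cells (adjusted p = 0.0926).

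A pair of T-cell receptor gamma constant genes changed in opposite directions. Tcrg-C4 had 1887, 3405 and 2127 normalised counts in BCL11b-ID2+ cells, against 15.6, 11.9 and 4.05 in BCL11b-ID2- cells (log2 difference 7.86 ± 1.33 SE, adjusted p = 0.00580). Tcrg-C2 had 16.8, 14.1 and 11.98 normalised counts in BCL11b-ID2+ cells, against 826, 494 and 677 in BCL11b-ID2- cells (log2 difference -5.43 ± 1.09 SE, adjusted p = 0.0179). These were the only 2 genes called by limma among 20 T-cell receptor complex and signalling genes tested. The signalling chain gene Cd3e had 1018, 173 and 4.41 normalised counts in BCL11b-ID2+ cells, against 475, 572 and 323 in BCL11b-ID2- cells, so the BCL11b-ID2+ libraries disagreed among themselves. Tcrg-C1 differed in the direction of Tcrg-C2 without passing. Tcrg-C1 had 1108, 1668 and 692 normalised counts in BCL11b-ID2+ cells, against 6957, 4284 and 3282 in BCL11b-ID2- cells (adjusted p = 0.126). The treatment of reads shared between gamma constant segments is likewise not stated in the labels or processing notes. The part of shared reads in these differences was not tested.

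**Figure D3:**
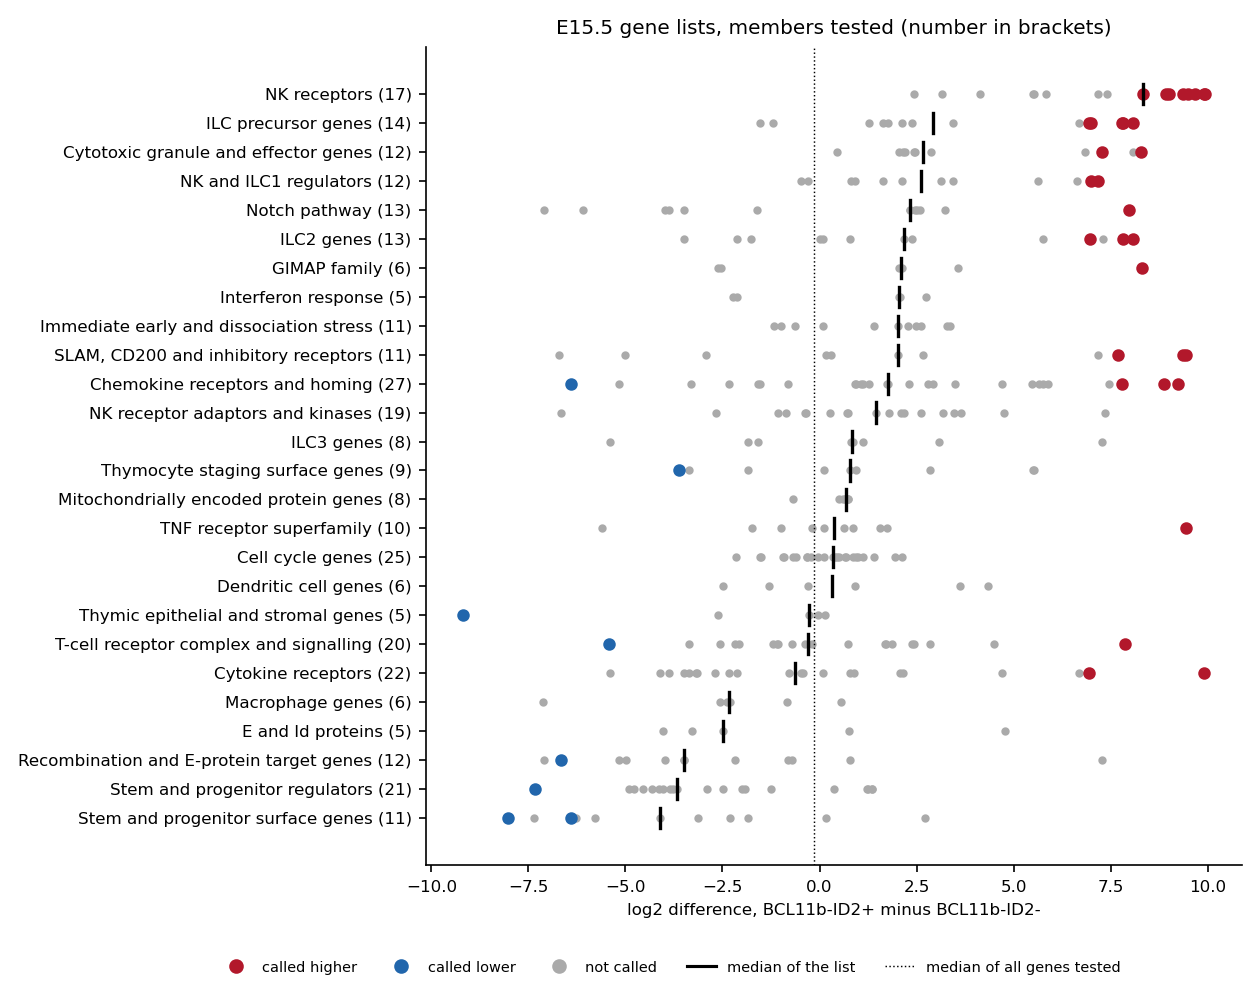
Log2 difference (BCL11b-ID2+ minus BCL11b-ID2-) of the tested members of each gene list with 5 or more of them at E15.5. Red points were called higher and blue points lower, black bars mark list medians and the dotted line the median of all genes tested (-0.14). NK receptors have the highest median (8.33) and stem and progenitor surface genes the lowest (-4.11).

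Genes of blood progenitors were among those called lower. Of 21 stem and progenitor regulators tested, 1 was called lower and 0 higher, with a median log2 difference of -3.67. Of these, 16 were below 0 and 5 above, namely Meis1 (1.36), Igf2bp2 (1.36), Zfpm1 (1.24), Ikzf1 (1.22) and Lin28b (0.37). Of 11 progenitor surface genes tested, 2 were called lower and 0 higher, with a median of -4.11. Here 9 were below 0 and 2 above, Ly6a (2.73) and Cd48 (0.15). Erg, an ETS-family factor of blood stem cells and early T-cell progenitors, had 297, 11.7 and 16.4 normalised counts in BCL11b-ID2+ cells, against 7889, 3564 and 9667 in BCL11b-ID2- cells (log2 difference -7.33 ± 1.19 SE, adjusted p = 0.00385). Angpt1, a ligand of the TIE2 receptor, had 10.4, 2.34 and 6.94 normalised counts in BCL11b-ID2+ cells, against 1653, 1704 and 1944 in BCL11b-ID2- cells (adjusted p = 0.0188). Adgrg1, an adhesion receptor of blood stem cells also called GPR56, had 4.796, 2.34 and 3.15 normalised counts in BCL11b-ID2+ cells, against 928, 1153 and 1910 in BCL11b-ID2- cells (log2 difference -8.20 ± 1.59 SE, adjusted p = 0.0171). Each of these 3 genes was abundant in every BCL11b-ID2- library. Cd34, the marker of blood progenitors, had 0, 0 and 21.4 normalised counts in BCL11b-ID2+ cells, against 487, 430 and 477 in BCL11b-ID2- cells, without passing (adjusted p = 0.121). Mycn, which had 0, 1.17 and 0.631 normalised counts in BCL11b-ID2+ cells, against 262, 360 and 165 in BCL11b-ID2- cells, also did not pass (adjusted p = 0.150).

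Of 12 recombination and E-protein target genes tested, 1 was called lower and 0 higher. Rag2, which encodes part of the recombinase that cuts antigen receptor genes, had 32.0, 11.7 and 5.67 normalised counts in BCL11b-ID2+ cells, against 1029, 1761 and 1596 in BCL11b-ID2- cells (log2 difference -6.66 ± 1.35 SE, adjusted p = 0.0188). Its partner Rag1 had 6.39, 82.0 and 20.8 normalised counts in BCL11b-ID2+ cells, against 1060, 108 and 162 in BCL11b-ID2- cells (adjusted p = 0.383). Among the E-protein genes themselves, Tcf3 had 64.7, 5.86 and 56.1 normalised counts in BCL11b-ID2+ cells, against 452, 213 and 252 in BCL11b-ID2- cells (adjusted p = 0.622). Tcf12 overlapped between the gates. Of 5 E and Id protein genes tested, 0 were called in either direction by limma, and Id2 was 1 of them.

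Cd24a and Cdk6 differed by less than the other called genes but had the smallest standard errors. Limma estimated these over all 14 E15.5 libraries, so they are not the spread within the 2 gates. Cd24a, a glycoprotein of early thymocytes, had 463, 1005 and 281 normalised counts in BCL11b-ID2+ cells, against 7140, 5401 and 6501 in BCL11b-ID2- cells (log2 difference -3.63 ± 0.58 SE, adjusted p = 0.00349). Cdk6, the cyclin D-dependent kinase of haematopoietic progenitors, had 3644, 5562 and 4740 normalised counts in BCL11b-ID2+ cells, against 22673, 20218 and 30548 in BCL11b-ID2- cells. Its log2 difference was -2.396 ± 0.295 (SE, adjusted p = 0.000177). Of 25 cell cycle genes tested, which do not include Cdk6, 0 were called in either direction by limma, and their median log2 difference was 0.35, with 14 above 0 and 11 below.

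Mpo, the myeloperoxidase of granulocyte progenitors, was listed at 0 in all 3 BCL11b-ID2+ libraries and had 345, 246 and 591 normalised counts in BCL11b-ID2- cells. That is at least 336-fold lower, with 3 reads over the BCL11b-ID2+ gate as the floor (adjusted p = 0.0201). Of 7 myeloid granule genes in the table, 3 were tested, and Mpo was the only one called. The other tested members, Clec12a and Igsf6, overlapped between the gates. Clec12a had 0, 1.17 and 37.8 normalised counts in BCL11b-ID2+ cells, against 4.26, 525 and 14.2 in BCL11b-ID2- cells. Igsf6 had 47.96, 4.69 and 0 normalised counts in BCL11b-ID2+ cells, against 413, 0 and 0 in BCL11b-ID2- cells. The 7 summed to 47.96 to 241 normalised counts in BCL11b-ID2+ libraries, against 624 to 830 in BCL11b-ID2- libraries. Mpo is part of this sum, so the sum adds nothing to the call of Mpo. Ctsg was at 0 in all but 1 BCL11b-ID2- library. S100a8 went the other way, with 0, 236 and 1.89 normalised counts in BCL11b-ID2+ cells and 0 in all 3 BCL11b-ID2- libraries. Macrophage genes summed to 55.2 to 250 normalised counts over 10 genes in BCL11b-ID2+ libraries, against 257 to 551 in BCL11b-ID2- libraries, with 0 of 6 tested genes called. Their part in the result for Mpo was not tested. Pdgfrb, a receptor of stromal and perivascular cells, was called lower, with 0, 2.34 and 0 normalised counts in BCL11b-ID2+ cells, against 1812, 682 and 522 in BCL11b-ID2- cells (adjusted p = 0.0160). The stromal markers Col1a1, Col1a2, Col3a1 and Rgs5 were at 0 in all 3 BCL11b-ID2- libraries, where Krt5 and Krt8 were at 0 and Epcam reached 14.9 and Foxn1 3.30. Psmb11, a proteasome subunit of cortical epithelium, was at 0 in all 3 BCL11b-ID2+ libraries and had 24.9, 0 and 8.09 normalised counts in BCL11b-ID2- cells. The endothelial gene Pecam1, which blood cells also express, had 131, 776 and 989 normalised counts in BCL11b-ID2+ cells, against 1260, 458 and 127 in BCL11b-ID2- cells. Col1a2 had 584, 0 and 0 normalised counts in BCL11b-ID2+ cells. The 15 stromal and epithelial genes summed to 778 to 1013 normalised counts in BCL11b-ID2+ libraries, against 660 to 3112 in BCL11b-ID2- libraries. Pdgfrb and Pecam1 are among the 15 and gave most of the sum in BCL11b-ID2- libraries. The part of stromal cells in the result for Pdgfrb was not tested. Mast cell genes summed to 1666 to 6081 normalised counts over 12 genes in BCL11b-ID2+ libraries, against 4147 to 7077 in BCL11b-ID2- libraries. The mast cell and progenitor protease gene Cpa3 and Kit gave most of that sum. Cpa3 had 3751, 1124 and 1185 normalised counts in BCL11b-ID2+ cells, against 2875, 1826 and 990 in BCL11b-ID2- cells, and the chymase gene Mcpt4 was at 0 in all but 1 BCL11b-ID2+ library. Erythroid and megakaryocyte genes summed to 0 to 25.8 normalised counts over 10 genes in BCL11b-ID2+ libraries, against 140 to 274 in BCL11b-ID2- libraries. The haemoglobin gene Hbb-bt had 0.799, 25.8 and 0 normalised counts in BCL11b-ID2+ cells, against 148, 247 and 86.3 in BCL11b-ID2- cells (adjusted p = 0.341). Dendritic cell genes summed to 309 to 761 normalised counts over 12 genes in BCL11b-ID2+ libraries, against 925 to 1496 in BCL11b-ID2- libraries. The gates did not overlap in either sum, but the dendritic sum includes the E-protein gene Tcf4. Tcf4 alone had 157, 214 and 101 normalised counts in BCL11b-ID2+ cells, against 1425, 834 and 502 in BCL11b-ID2- cells. Of the dendritic cell genes tested, 3 had a log2 difference above 0 and 3 below. B-lineage genes summed to 0.799 to 197 normalised counts over 6 genes in BCL11b-ID2+ libraries, against 0 to 142 in BCL11b-ID2- libraries. Of 2 B-lineage, 1 erythroid and 6 dendritic cell genes tested, 0 were called in either direction by limma, and the part of these cells in the results above was not tested.

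The remaining genes called lower by limma were Plekha7, Itih5, Spns2, Bpifc and Ripor1, with log2 differences of -9.71 to -5.54. Plekha7, a protein of epithelial junctions, had 0, 0 and 1.26 normalised counts in BCL11b-ID2+ cells, against 1457, 459 and 1977 in BCL11b-ID2- cells (log2 difference -9.71 ± 1.72 SE, adjusted p = 0.00774). Itih5 had 0.799, 0 and 0 normalised counts in BCL11b-ID2+ cells, against 368, 582 and 281 in BCL11b-ID2- cells (adjusted p = 0.0332). Spns2, a transporter of sphingosine-1-phosphate, had 0.799, 0 and 0 normalised counts in BCL11b-ID2+ cells, against 127, 1434 and 77.6 in BCL11b-ID2- cells (adjusted p = 0.0374). Bpifc was steadier than Spns2 across BCL11b-ID2- libraries. Bpifc had 0.799, 0 and 0 normalised counts in BCL11b-ID2+ cells, against 190, 156 and 170 in BCL11b-ID2- cells (adjusted p = 0.0332). Ripor1 had 34.4, 17.6 and 192 normalised counts in BCL11b-ID2+ cells, against 1782, 2914 and 2466 in BCL11b-ID2- cells (adjusted p = 0.0230). On the higher side, Stk39, a kinase that acts on ion transporters, had 1817, 552 and 503 normalised counts in BCL11b-ID2+ cells, against 1.42, 1.32 and 0 in BCL11b-ID2- cells (adjusted p = 0.0270). The other genes called higher were the predicted gene Gm47050, Adam12, Hs3st3b1, Cd163l1, Adam19, Ahnak and Rgs1, with log2 differences of 4.39 for Rgs1 to 9.81 for Gm47050. Rgs1, a regulator of chemokine receptor signalling, had 5547, 13401 and 4634 normalised counts in BCL11b-ID2+ cells, against 320, 298 and 393 in BCL11b-ID2- cells (adjusted p = 0.0308).

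Whether the ID2 difference depended on BCL11b was tested as an interaction at E15.5, the ID2 difference among BCL11b-negative cells minus that among BCL11b-positive cells. Limma called 0 of 10289 genes, and 662 (6.43%) had an unadjusted p under 0.05; edgeR called 0 and DESeq2 392. The smallest adjusted p was 0.454, so no gene was shown to differ between the BCL11b states by limma. The BCL11b-positive gates are other libraries, and 39 of the 48 called genes had the same sign of ID2 difference there. Of the 48, 17 had an unadjusted interaction p under 0.05, and since the interaction reuses the libraries that gave the calls, nothing is read from that count.

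Some called genes were high in both ID2-positive gates. Jag1 ranged over 940 to 1501 normalised counts in BCL11b+ID2+ cells and 0.729 to 3.16 in BCL11b+ID2- cells, and its interaction was -1.01 on the log2 scale. Cxcr6 ranged over 474 to 1407 normalised counts in BCL11b+ID2+ cells and 2.19 to 4.75 in BCL11b+ID2- cells, with an interaction of 0.07. Il18r1 ranged over 4915 to 7306 normalised counts in BCL11b+ID2+ cells and 8.74 to 370 in BCL11b+ID2- cells, with an interaction of 0.11. Erg was low in both ID2-positive gates. Erg ranged over 7.997 to 28.0 normalised counts in BCL11b+ID2+ cells and 2301 to 8659 in BCL11b+ID2- cells.

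Other called genes were near 0 in both BCL11b-positive gates. Ncr1 ranged over 0 to 1.64 normalised counts in BCL11b+ID2+ cells and 0 to 2.17 in BCL11b+ID2- cells, and Klrb1c over 0 to 0.9997 in BCL11b+ID2+ cells and 0 to 1.09 in BCL11b+ID2- cells. The interaction of Ncr1 was 9.26 on the log2 scale and did not pass (limma adjusted p = 0.585). Il2rb was intermediate, at 225 to 720 normalised counts in BCL11b+ID2+ cells and 1.46 to 8.70 in BCL11b+ID2- cells. Mpo ranged over 0 to 1.64 normalised counts in BCL11b+ID2+ cells and 0.729 to 15.8 in BCL11b+ID2- cells, so among the 4 DN1 gates of E15.5 its level was highest in BCL11b-ID2- cells. Ets1 was low in BCL11b-ID2- cells alone of the 4 gates, with 1422 to 2763 normalised counts in BCL11b+ID2+ cells and 727 to 1743 in BCL11b+ID2- cells. Cdk6 ranged over 15752 to 21293 normalised counts in BCL11b+ID2+ cells and 24441 to 29768 in BCL11b+ID2- cells.

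The 5 genes with the smallest interaction p were Gzma, Gxylt1, Gimap4, Cdk6 and Ptgfrn, each with an adjusted p of 0.454. For Gzma the log2 ID2 difference was 2.89 among BCL11b-negative cells and -3.78 among BCL11b-positive cells. Gzma ranged over 26.2 to 1931 normalised counts in BCL11b+ID2+ cells and 1891 to 4566 in BCL11b+ID2- cells. For Gimap4 it was 8.32 among BCL11b-negative cells and -3.38 among BCL11b-positive cells, and for Cdk6 -2.396 among BCL11b-negative cells and -0.59 among BCL11b-positive cells. For Ptgfrn it was 6.80 among BCL11b-negative cells and -5.87 among BCL11b-positive cells, and for Gxylt1 -2.68 among BCL11b-negative cells and 6.57 among BCL11b-positive cells.

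**Figure D4:**
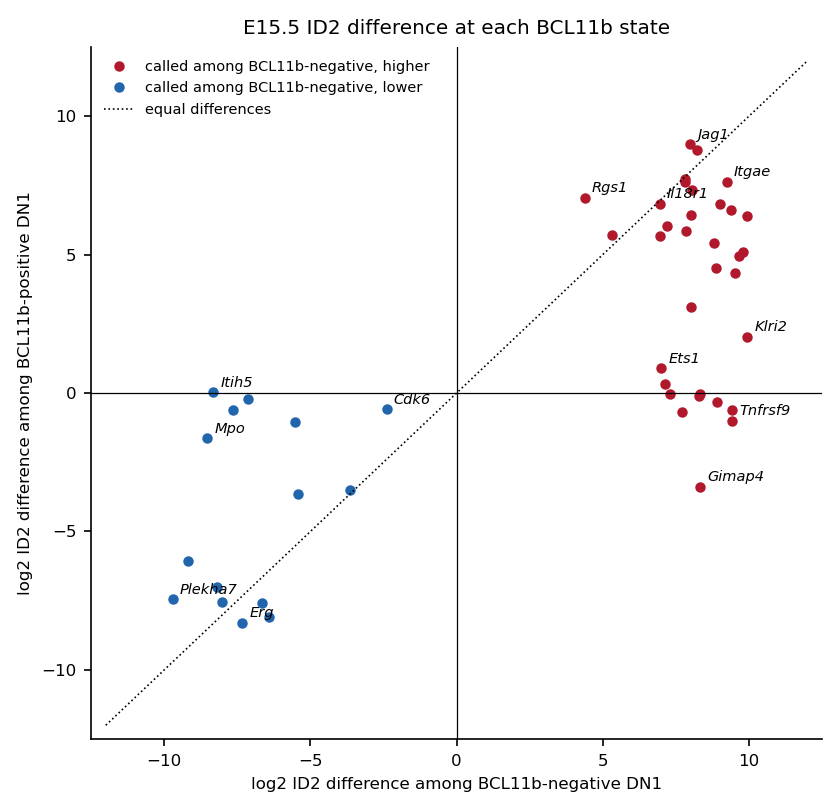
Log2 ID2 difference at E15.5 among BCL11b-negative cells (horizontal) and BCL11b-positive cells (vertical) for the 48 called genes, red where called higher and blue where called lower among BCL11b-negative cells; the horizontal position chose the genes. Jag1 and Il18r1 lie near the dotted line of equal differences, and Tnfrsf9, Mpo and Itih5 lie nearer the horizontal axis.

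The same gates at E19.5 gave a test in other libraries. There 2194 of 13840 genes (15.9%) were called, 1221 (8.82%) higher and 973 (7.03%) lower in BCL11b-ID2+ cells. All 48 genes called at E15.5 were also called at E19.5 in the same direction, against 1498 of 9935 genes (15.1%) over all genes tested at both stages. The 48 are 2.19% of the E19.5 calls. The direction also held for most genes short of the E15.5 threshold. Of 883 genes with an unadjusted p under 0.05 at E15.5 that were not called, 766 (86.7%) had the same direction at E19.5, 423 (47.9%) were called in it and 3 in the opposite one. Among 9004 genes with a larger p at E15.5, 64.2% had the same direction at E19.5 and 11.4% were called in it. Of the 2194 genes called at E19.5, 489 were not tested at E15.5, and 1498 of the other 1705 (87.9%) had the same direction at E15.5.

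**Figure D5:**
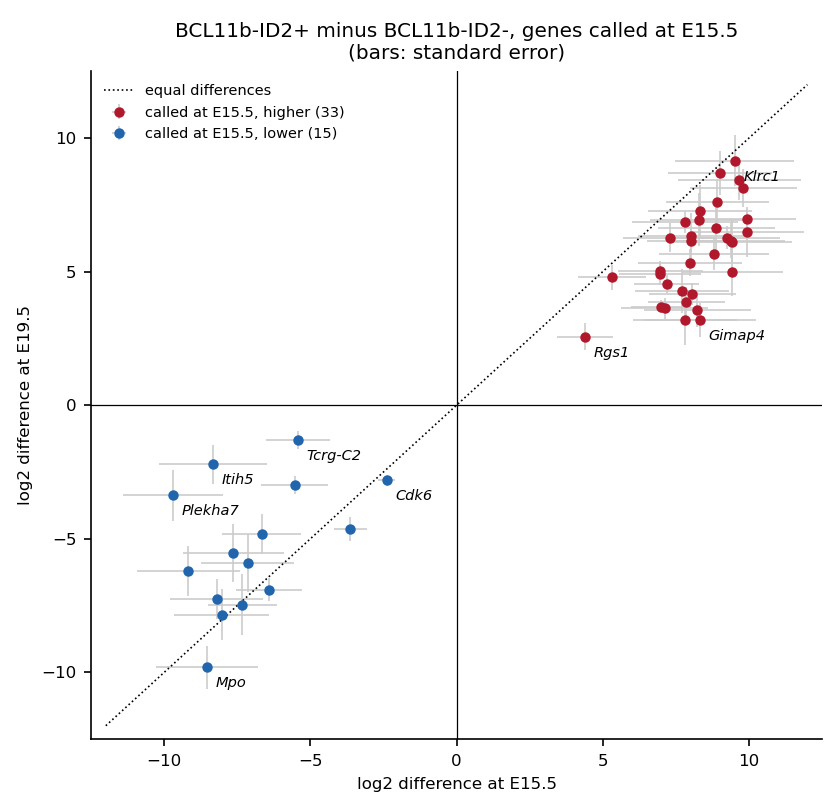
Log2 difference (BCL11b-ID2+ minus BCL11b-ID2-) at E15.5 (horizontal) and E19.5 (vertical) of the 48 genes called at E15.5, with standard errors as grey bars; red genes were called higher and blue genes lower at E15.5. All lie in the quadrants of equal sign, and the errors at E15.5 are longer than those at E19.5 for all 48.

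The stages were normalised in separate tables, so the size of a difference was not tested between them. For 43 of the 48 genes the absolute log2 difference was smaller at E19.5, where genes had been chosen for passing at E15.5, and the median of the absolute differences was 8.04 at E15.5, beside 5.78 at E19.5. Klrc1 averaged 725 ± 169 normalised counts in BCL11b-ID2+ cells and 0.320 ± 0.554 in BCL11b-ID2- cells at E19.5 (SD, n = 3 each). Ncr1 averaged 582 ± 125 normalised counts in BCL11b-ID2+ cells and 1.94 ± 0.496 in BCL11b-ID2- cells at E19.5. Klrc1 thus had a log2 difference of 9.51 at E15.5, beside 9.15 at E19.5. For Ncr1 it was 8.92 at E15.5, beside 7.62 at E19.5. Mpo averaged 1.302 ± 0.620 normalised counts in BCL11b-ID2+ cells and 2051 ± 456 in BCL11b-ID2- cells at E19.5, with a log2 difference of -9.82. Itih5 and Plekha7 had smaller values, with log2 differences of -2.22 and -3.37 at E19.5 (limma adjusted p = 0.0419 and 0.0162). Tcrg-C2 had a log2 difference of -1.31 at E19.5 and Tcrg-C4 one of 3.87, so the opposite directions were present at both stages.

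Id2 passed at E19.5, where its libraries were even, with 1438 ± 140 normalised counts in BCL11b-ID2+ cells and 21.2 ± 3.20 in BCL11b-ID2- cells (log2 difference 6.02 ± 0.74 SE, adjusted p = 2.79e-06). Of the 10 genes with the largest positive log2 difference at E19.5 among those tested at both stages, Klrc1, Klrb1b, Klrk1, Ncr1 and Klrb1c were called at E15.5, and Arnt2, Ccr8, Ptgfrn, Ccl5 and Tbx21 were not. Ccr8 had 7.99, 355 and 437 normalised counts in BCL11b-ID2+ cells, against 2.13, 0.660 and 0.674 in BCL11b-ID2- cells at E15.5 (adjusted p = 0.310). Of the 10 with the largest negative difference at E19.5, Mpo, Angpt1, Erg and Adgrg1 were among those called at E15.5, and Igfbp4, Hnf4a, Nfe2, AC132455.2 and Cd33 were not. Cd33 had 2.398, 1.17 and 303 normalised counts in BCL11b-ID2+ cells, against 653, 481 and 1181 in BCL11b-ID2- cells at E15.5 (adjusted p = 0.286).

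By list at E19.5, 21 of 23 NK receptor genes tested were called higher, beside 8.82% of all genes. Members near 0 in BCL11b-ID2- cells, such as Klrc1, could again pass the filter through the BCL11b-ID2+ libraries. The counts by list at this stage are therefore descriptions too. Of 27 stem and progenitor regulators 20 were called lower and 0 higher, and of 14 progenitor surface genes 9 were called lower and 0 higher, beside 7.03% of all genes. Of 19 cytotoxic granule and effector genes, 12 were called higher and 0 lower. Eomes averaged 51.1 ± 15.02 normalised counts in BCL11b-ID2+ cells and 0.407 ± 0.704 in BCL11b-ID2- cells at E19.5, the range over the BCL11b-ID2+ libraries being 37.6 to 67.3. Of 8 B-lineage genes tested at E19.5, 8 were called lower in BCL11b-ID2+ cells, whereas 2 were tested and 0 called by limma at E15.5.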

How the data were processed

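Bulk RNA-seq was made from total RNA of sorted embryonic thymus cells with the Ovation RNA-seq System V2 and Ovation Ultralow kits, per the labels' protocols. Reads were trimmed with Trim Galore 0.50, aligned with STAR 2.6.0a to GRCm38 and normalised with DESeq2 1.18.1, per the submitters' processing notes. The counter, its annotation and the use of strand are not given in the sources used here. The deposited tables, 1 per stage, hold normalised read counts, a signal per gene that the authors divided by a size factor per library. These values gave back whole reads for 100% of entries within 0.01 reads, and the depths and count-model alternatives rest on those reads.

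Genes with a value of 10 or more in at least 3 libraries of a stage were tested, which left 10289 genes for E15.5 and 13840 for E19.5. The test was limma 3.58.1 (R 4.3.3) on log2(value + 1), with trend and robust moderation, all 14 libraries of E15.5 or all 18 of E19.5 in 1 fit and Benjamini-Hochberg adjustment at 0.05. All log2 differences are on the log2(value + 1) scale, which understates changes of low genes. The alternatives were a pseudocount of 8, no filter, a filter of 50, TMM scaling, edgeR 4.0.16, DESeq2 1.42.0, library weights, the replicate number as a block, a fit restricted to the compared gates and leaving out each library. The procedure was tested on simulated data.

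E15.5 columns were matched to libraries by the barcode number that their headers share with the labels. Gene names and coordinates are those of GENCODE M21 (GRCm38). The comparison, the gene lists and the rule for named genes were chosen with earlier results of these data known. The rule names the 15 called genes of at least 100 normalised counts with the largest log2 difference in each direction, every called list member and up to 4 members of a list by size. It adds Id2 and Bcl11b, the 5 smallest interaction p-values and the 10 largest E19.5 differences in each direction. Values of some genes that this rule names are not reported here.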

Additional observations from a re-analysis of the deposited data

How the results depend on the processing

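The 48 calls among BCL11b-negative cells at E15.5 became 28 without the filter (19404 genes tested), 30 with edgeR, 146 with library weights and 414 with DESeq2, 215 higher and 199 lower. Leaving out 1 library gave 4 to 15 calls. Of the 48, DESeq2 kept 47, library weights and TMM scaling 48, edgeR 30 and the fit without a filter 28. In the fits that left out a library, 4 of the 48 were called every time and 24 never. None of the 48 changed direction under any alternative run. The interaction stayed at 0 calls except with DESeq2 (392) and when leaving out 1 library (0 to 1, the 1 without BCL11b+ID2+ library 1). The cause of these differences was not tested. Libraries of the 2 gates with the same number deviated together only weakly (r across genes was 0.005 to 0.039 for E15.5 and 0.026 to 0.076 for E19.5), and those with different numbers had r of -0.024 to 0.005 for E15.5 and -0.055 to 0.019 for E19.5. Every E19.5 library of these gates correlated best with its own number. At E15.5 this also held, except that BCL11b-ID2- library 2 tied between numbers 1 and 2 (r of 0.005 with each). The mitochondrial rRNA share of number 4 at E19.5 was 44.4% in BCL11b-ID2+ cells (34.9% in number 1 and 34.3% in number 2) and 50.3% in BCL11b-ID2- cells (43.2% in number 1 and 40.9% in number 2). This is a hint from the data, since the labels do not say what a number marks. With the replicate number as a block, 36 genes were called at E15.5, 0 in the interaction and 2499 at E19.5. The median SD of log2 values at E15.5 was 1.79 in BCL11b-ID2+ cells and 1.48 in BCL11b-ID2- cells, and at E19.5 it was 0.49 in BCL11b-ID2+ cells and 0.50 in BCL11b-ID2- cells.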
